A study of Homo sapiens with 24 samples.

Results

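The 7 genes described here make, break down and move spermidine and spermine: the synthases SRM and SMS, the acetyltransferase SAT1, the oxidases SMOX and PAOX, and the transporters ATP13A2 and ATP13A3. They were taken by name, as every probe annotated to one of these genes, from the 20038 gene symbols with a probe on the array. The genes have 13 probes, and 7 of these probes, covering 6 of the genes, passed the filter on dim signals (a detection p-value under 0.01 on at least 4 arrays). ATP13A3 did not pass it and was not tested.

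The samples were N/TERT1 cells, immortalized human keratinocytes, whose total RNA was profiled on 24 Illumina bead arrays in 6 groups of 4. In the group called EGBG plus SDSM, cells kept for 6 days in 1.2 mM calcium received 50 µM EGBG together with 1 mM spermidine/spermine at day 3. The EGBG group received 50 µM EGBG alone at that time, the SDSM group 1 mM spermidine/spermine alone, and the PUT group 1 mM putrescine alone. The group called day 6 went through the same 6 days in 1.2 mM calcium with no compound, and the undifferentiated group was labelled day 0, from 0.3 mM calcium, also with no compound. Calcium and the 6 days of culture therefore differ together in each comparison with undifferentiated cells and cannot be told apart. The labels do not settle whether 1 mM is the dose of spermidine and spermine each or of both together. EGBG inhibits AMD1, the decarboxylase that makes the aminopropyl donor. All groups are a single immortalized line grown as a culture, without the other cells of skin. The series calls the arrays biological replicates, but nothing says that the cultures were separate. The p-values below cover the spread between these arrays and no other, and that spread may be technical.

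Spermidine and spermine are small positively charged amines that bind nucleic acids and are needed for growth in nearly all cells. Spermidine synthase (SRM) adds an aminopropyl group to putrescine, and spermine synthase (SMS) adds a further aminopropyl group to spermidine. The way back starts with SAT1, which acetylates spermidine and spermine. The acetylated forms are exported or oxidised by PAOX, a peroxisomal enzyme, while SMOX oxidises spermine directly to spermidine. ATP13A2 carries polyamines out of lysosomes into the cytosol, and ATP13A3 is a related transporter of the endosomal system that takes part in polyamine uptake. In the epidermis, keratinocytes leave the cell cycle as they differentiate, and polyamine synthesis is a feature of proliferating epidermis and its tumours.

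The promoters of SRM, SMS and SAT1 are shown because these 3 genes were detected on every array and hold the differences described first. RefSeq (GRCh38.p14) supplied promoters for 5 of the 7 genes. Each sequence is the 250 bases before the start of the gene, read 5′ to 3′ on the strand of the gene. SRM lies on the minus strand at chr1:11060019-11060268, SMS on the plus strand at chrX:21940459-21940708 and SAT1 on the plus strand at chrX:23782923-23783172. Capitals mark CACGTG (an E-box), CCAAT and GGGCGG (a GC box) on either strand, so that ATTGG and CCGCCC are also in capitals.
SRM: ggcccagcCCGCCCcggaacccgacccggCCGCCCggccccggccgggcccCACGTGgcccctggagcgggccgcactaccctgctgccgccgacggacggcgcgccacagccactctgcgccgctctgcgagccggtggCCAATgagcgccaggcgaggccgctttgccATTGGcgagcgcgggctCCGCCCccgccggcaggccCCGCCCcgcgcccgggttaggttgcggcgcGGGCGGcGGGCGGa
SMS: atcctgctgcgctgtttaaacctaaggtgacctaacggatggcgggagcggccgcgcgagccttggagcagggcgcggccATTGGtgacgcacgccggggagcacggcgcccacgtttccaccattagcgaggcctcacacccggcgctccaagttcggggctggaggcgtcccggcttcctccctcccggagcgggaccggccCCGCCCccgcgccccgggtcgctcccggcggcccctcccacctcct
SAT1: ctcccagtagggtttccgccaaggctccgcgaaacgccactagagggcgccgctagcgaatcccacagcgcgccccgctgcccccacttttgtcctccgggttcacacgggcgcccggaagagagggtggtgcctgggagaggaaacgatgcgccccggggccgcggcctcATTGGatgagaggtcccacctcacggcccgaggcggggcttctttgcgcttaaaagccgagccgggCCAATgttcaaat
The SRM window held 1 CACGTG, 2 CCAAT and 6 GGGCGG matches, with no overlap between matches, and 82.0% of its bases were G or C. The SMS window held 1 CCAAT and 1 GGGCGG match and was 72.8% G or C. The SAT1 window held 2 CCAAT matches, no CACGTG and no GGGCGG, and was 66.4% G or C. Among 35116 promoter windows of the same length, 6.34% held CACGTG, 32% held CCAAT and 42.6% held GGGCGG. A match is only a run of letters and was not tied to binding by any measurement here.

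Between 10348 and 13089 probes were detected per array, and mean intensity per array lay between 345.2 and 637.1 units. Arrays of a group correlated at r of 0.9649 or more across probes. Of 8 pan-keratinocyte markers measured, all were detected on every array. Of 10 differentiation markers, IVL, DSG1 and TGM3 were undetected on all undifferentiated arrays. The summed intensity of all 10 was 129378 to 180875 in EGBG plus SDSM, 101497 to 118430 in EGBG, 176954 to 222586 in SDSM, 152085 to 183355 in PUT, 157613 to 212247 in day 6 and 2494 to 4294 in undifferentiated cells. The summed intensity of 6 genes of dividing cells was 930.6 to 1490 in EGBG plus SDSM, 1964 to 2739 in EGBG, 1123 to 1748 in SDSM, 1317 to 1701 in PUT, 864.7 to 1604 in day 6 and 5825 to 13267 in undifferentiated cells. On all EGBG arrays MKI67, TOP2A, CCNB1, CDC20 and MCM2 were undetected, which left PCNA as the only 1 of the 6 detected there. The higher sum with EGBG therefore does not stand for the list as a whole. MKI67 and MCM2 were undetected in undifferentiated cells too. The sums of both marker lists differed between the groups compared below, and their part in the differences of the 7 genes was not tested. MLANA, TYR and SOX10 of melanocytes, COL3A1 and PDGFRB of fibroblasts, and PTPRC and CD3E of immune cells were undetected on all arrays. In each group 7 or 8 of 9 melanocyte markers, 7 of 10 fibroblast markers and 5 to 7 of 10 immune markers were undetected throughout. In bulk RNA, fewer cells of a type and less RNA per cell cannot be told apart.

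Signals are normalized log2 values of a probe, and differences are log2 differences between group means ± SE from a single limma fit, with Benjamini-Hochberg adjustment over 12149 features (a feature is a gene, or an unnamed probe). The first group named is set against the second, with 4 arrays in each. A difference is called past the threshold at an adjusted p under 0.05. Levels of different probes cannot be compared. Where none of the 4 arrays of a group detected a gene, its level there is known only as a bound, set against the lowest detected signal, which lay between 6.35 and 6.88 on the log2 scale across arrays. A bound carries no error, and a p-value beside it is that of the limma contrast of signals. Where some arrays of the brighter group were also undetected, the bound is not firm.

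Spermidine synthase was lower in day 6 than in undifferentiated cells. It was higher with EGBG than in day 6 cells given nothing, and lower with EGBG plus SDSM than with EGBG alone. The SRM signal was 8.56, 8.52, 8.37 and 8.65 on the EGBG plus SDSM arrays, against 9.35, 9.40, 8.91 and 9.18 on the EGBG arrays. It was 8.20, 8.36, 7.84 and 8.51 on the SDSM arrays and 8.42, 8.69, 8.27 and 8.71 on the PUT arrays. It was 8.90, 8.72, 8.32 and 8.41 on the day 6 arrays, against 9.45, 9.84, 9.11 and 9.33 on the undifferentiated arrays. The EGBG arrays therefore lay above every day 6 and every EGBG plus SDSM array, and within the span of the undifferentiated arrays apart from replicate 3, which lay below them.

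For SRM, day 6 cells were lower than undifferentiated cells by a log2 difference of -0.85 ± 0.17 (adjusted p = 0.000171), 0.556 of the undifferentiated level. EGBG against day 6 gave 0.62 ± 0.17 (adjusted p = 0.00572), a 1.54-fold higher level. EGBG plus SDSM against EGBG gave -0.69 ± 0.17 (adjusted p = 0.00189), 0.621 of the EGBG level. Against day 6 the same EGBG plus SDSM arrays differed by -0.06 (95% interval -0.42 to 0.29, adjusted p = 0.842). EGBG cells and undifferentiated cells differed by -0.22 ± 0.17 (adjusted p = 0.302), which did not pass the threshold. Neither SDSM (-0.36, adjusted p = 0.13) nor PUT (-0.06, adjusted p = 0.843) differed past the threshold from day 6, although the SDSM difference passed it when the replicate number was a block (adjusted p = 0.0397) and, at -0.54, in the other table of signals described next (adjusted p = 0.0371). In the order of SRM group means, undifferentiated stood first, followed by EGBG, day 6, PUT, EGBG plus SDSM and SDSM, and of the 5 neighbouring pairs only EGBG and day 6 differed past the threshold. Replicate 3 was the lowest of its group for SRM in 6 of 6 groups. In the other table of signals that the authors deposited, most of whose values are at a floor, the SRM differences were 0.23 for EGBG against day 6 (adjusted p = 0.372) and -0.41 for EGBG plus SDSM against EGBG (adjusted p = 0.075), so neither passed the threshold there.

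**Figure D1:**
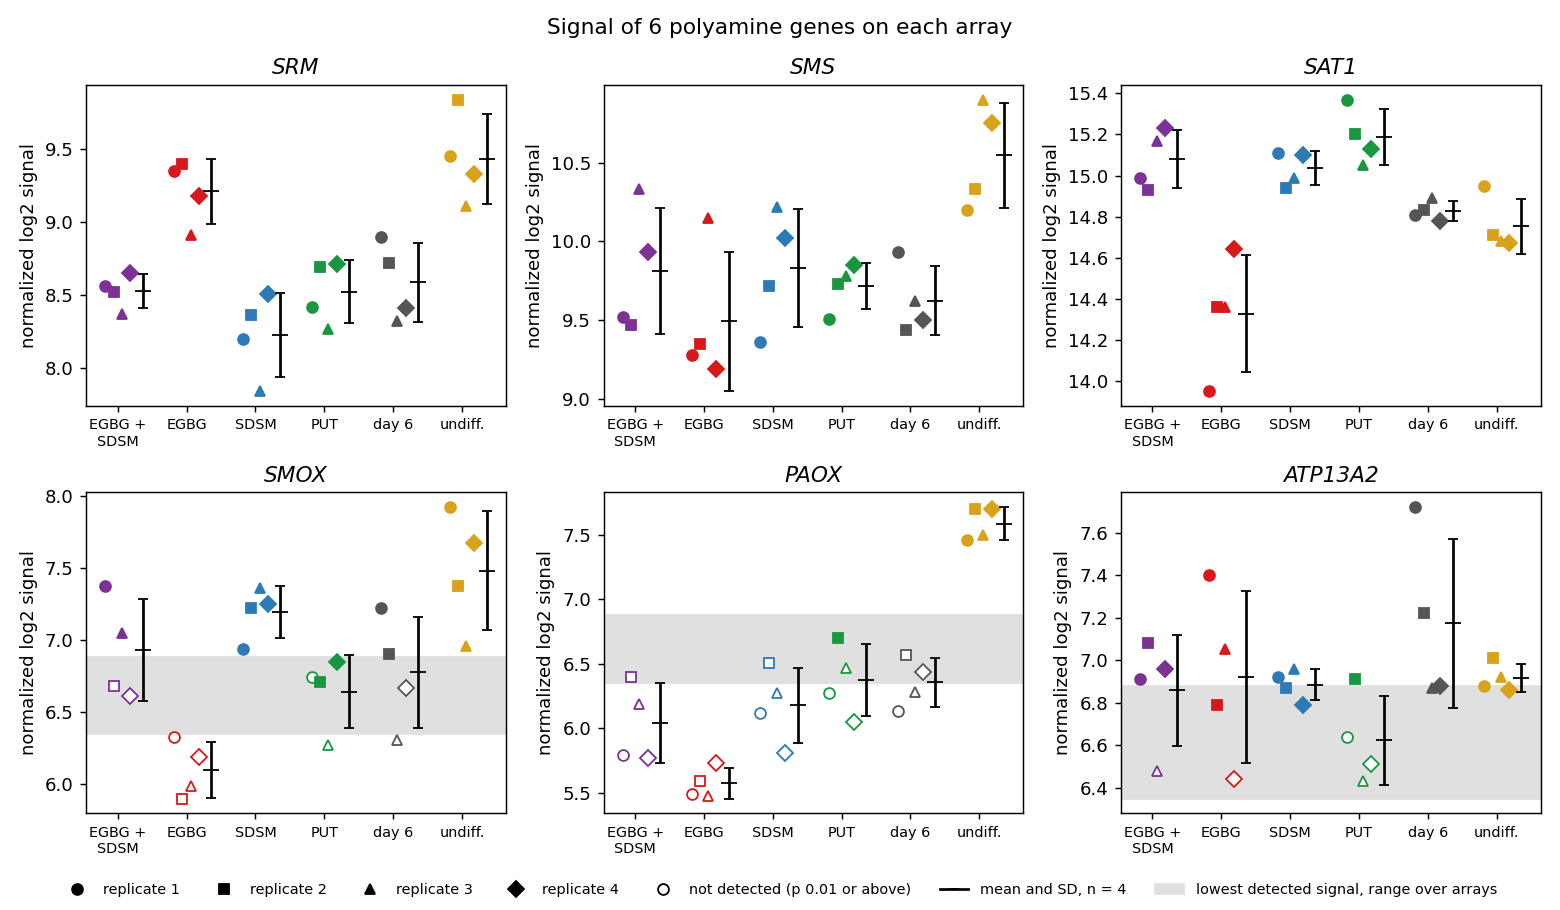
Normalized log2 signal (vertical axes, a scale per gene) of the 6 tested genes on each of the 24 arrays, by group. Marker shapes give the replicate number, open markers are arrays on which the probe was not detected, bars are the mean and SD of 4 arrays, and the grey band is the range of the lowest detected signal. SRM is high and SAT1 low in the EGBG group, and PAOX is detected on all 4 undifferentiated arrays but on only 1 array at day 6, a PUT array.

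Spermine synthase was lower in every day 6 group than in undifferentiated cells, and no compound moved it past the threshold at day 6. The SMS signal of the brighter probe was 9.52, 9.47, 10.33 and 9.93 on the EGBG plus SDSM arrays, against 9.28, 9.35, 10.15 and 9.19 on the EGBG arrays. It was 9.36, 9.72, 10.22 and 10.02 on the SDSM arrays and 9.51, 9.73, 9.78 and 9.85 on the PUT arrays. It was 9.93, 9.44, 9.62 and 9.50 on the day 6 arrays, against 10.20, 10.33, 10.90 and 10.75 on the undifferentiated arrays. Only replicate 3 of EGBG plus SDSM and replicate 3 of SDSM reached into the undifferentiated span, and EGBG replicate 3 stood apart above the other EGBG arrays.

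Day 6 against undifferentiated cells gave a log2 difference of -0.92 ± 0.22 for SMS (adjusted p = 0.001), and EGBG against undifferentiated gave -1.05 ± 0.22 (adjusted p = 0.00033), 0.482 of the undifferentiated level. EGBG plus SDSM (-0.73, adjusted p = 0.00645), SDSM (-0.71, adjusted p = 0.00756) and PUT (-0.82, adjusted p = 0.00285) were also lower than undifferentiated cells. These comparisons share the undifferentiated arrays. At day 6, EGBG against no compound gave -0.13 (95% interval -0.59 to 0.33, adjusted p = 0.687) and EGBG plus SDSM against EGBG gave 0.32 (95% interval -0.14 to 0.78, adjusted p = 0.243). Without EGBG replicate 3 that last difference was 0.54 with an adjusted p of 0.0425, so 1 array decides on which side of the threshold it lies. In the other table of signals, day 6 against undifferentiated cells was -0.52 for SMS (adjusted p = 0.119). The order of SMS group means was undifferentiated, SDSM, EGBG plus SDSM, PUT, day 6 and EGBG, with undifferentiated over SDSM the only neighbouring pair past the threshold.

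A further SMS probe correlated with the brighter one at r = 0.96 over the 24 arrays. Both probes read the same RNA on each array, so their agreement is not that of independent samples. Its signal was 8.99, 8.71, 9.81 and 8.97 on the EGBG arrays, 9.29, 8.74, 9.11 and 9.05 on the day 6 arrays and 9.61, 9.74, 10.44 and 10.59 on the undifferentiated arrays. Day 6 against undifferentiated gave -1.04 ± 0.28 with this probe (adjusted p = 0.00235) and EGBG against day 6 gave 0.07 (adjusted p = 0.871). EGBG replicate 3 was therefore the highest EGBG array with both probes. Replicate 3 was the highest of its group for the brighter probe in 4 of 6 groups.

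**Figure D2:**
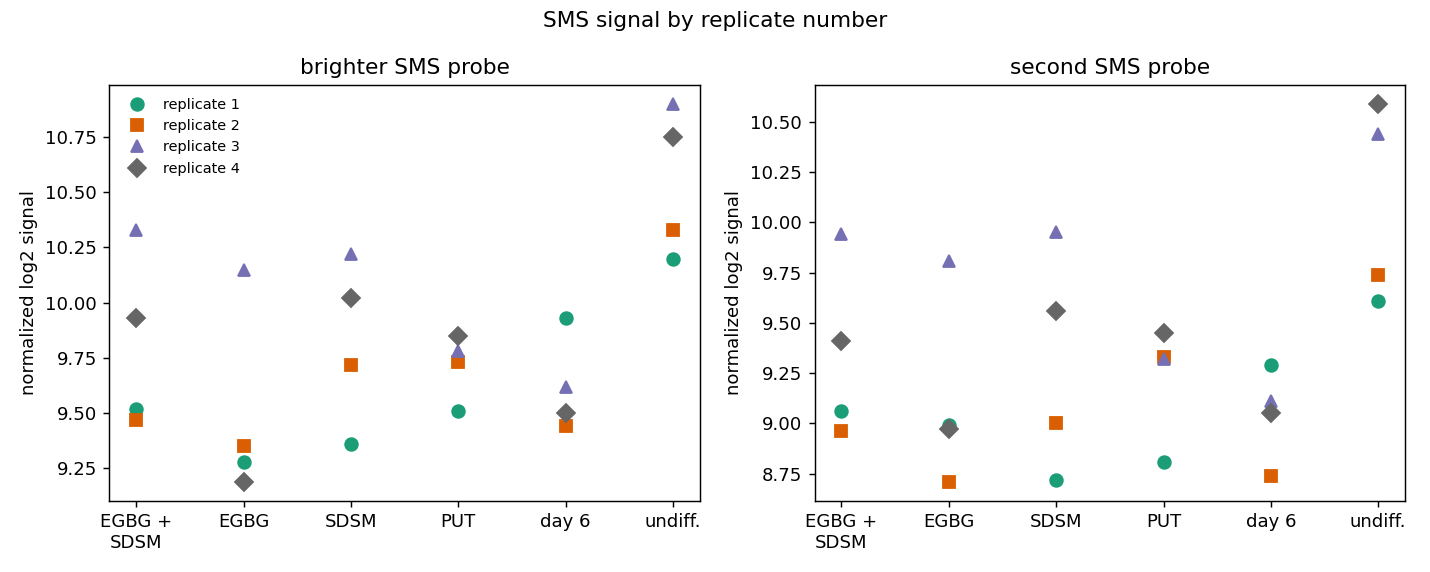
Normalized log2 signal (vertical axes) of the 2 SMS probes on each array, by group, with marker shape and colour for the replicate number. EGBG replicate 3 is the highest of the EGBG arrays with either probe, at 10.15 and 9.81, and the undifferentiated arrays lie between 10.20 and 10.90 with the brighter probe and between 9.61 and 10.59 with the other.

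SAT1, the acetyltransferase that limits the rate of polyamine breakdown, was lower with EGBG than in any other group, and higher with EGBG plus SDSM than with EGBG alone. Its signal was 14.99, 14.93, 15.17 and 15.23 on the EGBG plus SDSM arrays, against 13.95, 14.36, 14.36 and 14.64 on the EGBG arrays. It was 15.11, 14.94, 14.99 and 15.10 on the SDSM arrays and 15.37, 15.20, 15.05 and 15.13 on the PUT arrays. It was 14.81, 14.83, 14.89 and 14.78 on the day 6 arrays, against 14.95, 14.71, 14.68 and 14.67 on the undifferentiated arrays. In these normalized signals all 4 EGBG arrays lay below all other arrays, and every array given SDSM or PUT, with or without EGBG, lay above every day 6 array. In the deposited intensities they did not. There EGBG replicate 4 (29924.7) lay above day 6 replicate 4 (24226.1), and EGBG plus SDSM replicate 1 (23627.5) lay below every day 6 array.

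EGBG against day 6 gave a log2 difference of -0.50 ± 0.13 for SAT1 (adjusted p = 0.00332), 0.708 of the day 6 level. EGBG plus SDSM against EGBG gave 0.75 ± 0.13 (adjusted p = 3.06e-05), a 1.68-fold higher level. EGBG against undifferentiated cells gave -0.42 ± 0.13 (adjusted p = 0.00818), which missed the threshold without EGBG replicate 1 (-0.30, adjusted p = 0.053) and with scaling to the 75th percentile (-0.10, adjusted p = 0.604). Day 6 against undifferentiated cells gave 0.07 (95% interval -0.19 to 0.34, adjusted p = 0.651). Although their arrays did not overlap with those of day 6, EGBG plus SDSM (0.25, adjusted p = 0.192), SDSM (0.21, adjusted p = 0.25) and PUT (0.36, 95% interval 0.09 to 0.63, adjusted p = 0.0565) did not pass the threshold against it. Arrays did not overlap for 15.7% of all features with EGBG plus SDSM, for 22.2% with SDSM and for 18.9% with PUT. These 3 comparisons share the day 6 arrays. The PUT difference passed the threshold with a normexp offset of 50 (adjusted p = 0.0386) and with a robust, trended variance (adjusted p = 0.0304), and that of EGBG plus SDSM with 75th percentile scaling (adjusted p = 0.0456). In the order of SAT1 group means, PUT came first, then EGBG plus SDSM, SDSM, day 6, undifferentiated and EGBG, and of neighbouring pairs only undifferentiated and EGBG differed past the threshold.

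The EGBG effect was set between cells with and without spermidine/spermine by testing the interaction itself. For SAT1 the effect of EGBG was 0.05 with SDSM (EGBG plus SDSM against SDSM, adjusted p = 0.943) and -0.50 without it, and these differed by 0.54 ± 0.18 (95% interval 0.17 to 0.92, adjusted p = 0.0386). SAT1 was the only gene of the 6 tested past the threshold, where 18.5% of all features passed. Leaving out single arrays gave values from 0.42 to 0.65 and adjusted p from 0.014 to 0.0929. The call was lost on leaving out replicate 3 or 4 of EGBG plus SDSM, replicate 1, 2 or 3 of EGBG, replicate 2 or 3 of SDSM, or replicate 2, 3 or 4 of day 6. It was also lost when only the groups compared were fitted (adjusted p = 0.0766) and with 75th percentile scaling (adjusted p = 0.0999). For SRM the interaction was -0.33 (adjusted p = 0.415), for SMS 0.11 (adjusted p = 0.871), for SMOX 0.41 (adjusted p = 0.394) and for ATP13A2 0.23 (adjusted p = 0.635). The PAOX interaction (0.64, adjusted p = 0.06) was taken between groups in which the probe was undetected.

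**Figure D3:**
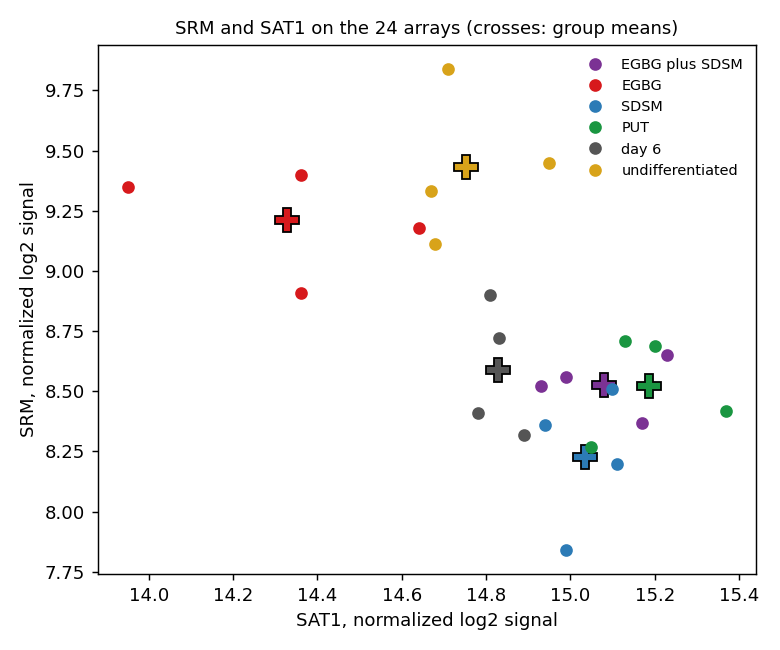
SAT1 (horizontal axis) against SRM (vertical axis), both normalized log2 signals, on the 24 arrays, coloured by group, with crosses at the group means. The EGBG arrays lie apart at low SAT1 (mean 14.33) and high SRM (mean 9.21), and EGBG plus SDSM lies at a mean SAT1 of 15.08 and a mean SRM of 8.52.

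SRM and SAT1 moved in opposite directions in both EGBG comparisons. As a description over the 24 arrays, which share groups, Pearson's r between them was -0.60 and Spearman's rho -0.59. With group means subtracted r was -0.04, so within groups high SRM did not go with low SAT1. Among the 15 pairs of tested genes, the highest r over the 24 arrays was 0.63 for SMS and PAOX, whose r within groups was -0.19, and the largest within groups was -0.49 for SAT1 and ATP13A2.

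SMOX, spermine oxidase, was undetected on all 4 EGBG arrays and dim elsewhere. Its brightest probe had signals of 7.37, 6.68, 7.05 and 6.61 on the EGBG plus SDSM arrays (2 detected), against 6.33, 5.90, 5.99 and 6.19 on the EGBG arrays (0 detected). It had 6.94, 7.22, 7.36 and 7.25 on the SDSM arrays (4 detected) and 6.74, 6.71, 6.27 and 6.85 on the PUT arrays (2 detected). It had 7.22, 6.90, 6.31 and 6.67 on the day 6 arrays (2 detected), against 7.92, 7.37, 6.96 and 7.67 on the undifferentiated arrays (4 detected). The EGBG arrays lay below all EGBG plus SDSM, SDSM and undifferentiated arrays and overlapped with the lowest day 6 and PUT arrays.

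Set against the detection limit, SMOX was 1.11-fold lower in EGBG than in day 6 cells. This bound is not firm, as only 2 of 4 day 6 arrays detected SMOX, and the arrays overlapped. The limma contrast passed the threshold (adjusted p = 0.0124), a call lost without day 6 replicate 1 (adjusted p = 0.0583). In EGBG plus SDSM, also detected on 2 of 4 arrays, SMOX was 1.24-fold higher than in EGBG cells (adjusted p = 0.00195). In EGBG it was at least 1.49-fold lower than in SDSM cells (adjusted p = 9.22e-05). Against undifferentiated cells it was at least 1.81-fold lower in EGBG (adjusted p = 4.8e-06). Day 6 against undifferentiated cells gave -0.70 ± 0.21 (adjusted p = 0.00561) with overlapping arrays, and -0.53 in the other table of signals (adjusted p = 0.233). SDSM against PUT gave 0.55 (95% interval 0.12 to 0.98, adjusted p = 0.0734). The arrays did not overlap, as for 24.3% of features, and the difference passed the threshold with the replicate number as a block (adjusted p = 0.0392) and with only these groups fitted (adjusted p = 0.0277). The order of SMOX group means was undifferentiated, SDSM, EGBG plus SDSM, day 6, PUT and EGBG, with PUT over EGBG the only neighbouring pair past the threshold (adjusted p = 0.0355). Another SMOX probe, detected only on 3 undifferentiated arrays and so not tested, correlated with the brightest at r = 0.87. The remaining SMOX probe was undetected on all 24 arrays.

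PAOX, the oxidase of acetylated polyamines, was detected on all undifferentiated arrays and on only 1 of the 20 arrays at day 6. Its signal was 5.79, 6.40, 6.19 and 5.77 on the EGBG plus SDSM arrays, against 5.49, 5.59, 5.47 and 5.73 on the EGBG arrays. It was 6.12, 6.51, 6.27 and 5.81 on the SDSM arrays and 6.27, 6.70, 6.47 and 6.05 on the PUT arrays, where the single detection fell. It was 6.13, 6.57, 6.28 and 6.44 on the day 6 arrays, against 7.46, 7.70, 7.50 and 7.70 on the undifferentiated arrays. Every undifferentiated array lay above every other array, and the probe passed the filter on dim signals only through these arrays.

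The PAOX level was at least 1.99-fold lower in day 6 than in undifferentiated cells (adjusted p = 6.46e-07), and at least 1.96-fold lower in EGBG than in undifferentiated cells (adjusted p = 2.25e-10). Against undifferentiated cells it was also at least 1.97-fold lower in SDSM (adjusted p = 5.56e-08) and at least 1.76-fold lower in EGBG plus SDSM (adjusted p = 1.29e-08). Contrasts past the threshold for EGBG against day 6 (adjusted p = 0.00054) and for EGBG plus SDSM against EGBG (adjusted p = 0.0227) came from signals undetected in both groups, and no fold is given. The contrast of EGBG plus SDSM with EGBG was not past it without EGBG plus SDSM replicate 2 or 3 or without EGBG replicate 1 or 3 (adjusted p up to 0.104). The order of PAOX group means was undifferentiated, PUT, day 6, SDSM, EGBG plus SDSM and EGBG, and only undifferentiated over PUT (adjusted p = 8.17e-07) and EGBG plus SDSM over EGBG passed the threshold. The 2 other PAOX probes were undetected on every array, did not pass the filter, and correlated with this probe at r = -0.10 and 0.47. The PAOX differences therefore rest on a single probe.

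ATP13A2, the lysosomal polyamine exporter, stayed near the detection limit in every group. Its signal was 6.91, 7.08, 6.48 and 6.96 on the EGBG plus SDSM arrays (3 detected), against 7.40, 6.79, 7.05 and 6.44 on the EGBG arrays (3 detected). It was 6.92, 6.87, 6.96 and 6.79 on the SDSM arrays (4 detected) and 6.64, 6.91, 6.43 and 6.51 on the PUT arrays (1 detected). It was 7.72, 7.22, 6.87 and 6.88 on the day 6 arrays (4 detected), against 6.88, 7.01, 6.92 and 6.86 on the undifferentiated arrays (4 detected). Arrays of all groups overlapped, and day 6 replicate 1 was the highest of the 24.

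PUT against day 6 gave a log2 difference of -0.55 ± 0.19 for ATP13A2 (adjusted p = 0.046), the only member past the threshold for PUT, and the arrays overlapped. The call was lost under 14 of 20 alternatives, which included leaving out PUT replicate 1, 3 or 4 or day 6 replicate 1 or 2. Without day 6 replicate 1 the difference was -0.37 (adjusted p = 0.206). Day 6 against undifferentiated cells (0.26, adjusted p = 0.255), EGBG against day 6 (-0.25, adjusted p = 0.303) and EGBG plus SDSM against EGBG (-0.06, adjusted p = 0.803) did not pass. No neighbouring pair passed the threshold in the order of ATP13A2 group means, which was day 6, EGBG, undifferentiated, SDSM, EGBG plus SDSM and PUT. ATP13A3 was undetected on all 24 arrays with either of its 2 probes, whose log2 signals lay between 5.71 and 6.48 and between 5.28 and 5.58, so its level is known only to be under the detection limit of these probes.

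Over the 6 tested genes, 4 were lower and 0 higher in day 6 than in undifferentiated cells, while 33.8% of all features were lower, 23.8% were higher and 57.6% passed in either direction. The arrays did not overlap for 3 of these genes, against 48.7% of features. The median difference of the genes was -0.78, beside -0.10 over all features. PAOX is among the lower genes and those not overlapping, and it enters this median. It passed the filter only through the undifferentiated arrays, where it was high, so its part in these values follows in part from the filter. The 4 lower genes hold both synthases and both oxidases, that is, enzymes of opposite direction in the pathway. For EGBG against day 6, PAOX was undetected in both groups, was tested only because other groups detected it, and is left out of the counts. Of the 5 other tested genes 1 was higher (21.3% of features) and 2 were lower (17.7% of features), with 39% of features past the threshold in all. SMOX, which was lower, was undetected with EGBG and detected on 2 of 4 day 6 arrays. Of the features called there 54.7% were higher, a share that was 42.0% with 75th percentile scaling, 43.35% with cyclic loess and 36.8% in the other table of signals. Arrays did not overlap for 2 of the 5 genes, against 31.4% of features, and their median was -0.25 beside 0.07 over all features. For EGBG plus SDSM against EGBG, where PAOX was again undetected in both groups, 2 of the 5 genes were higher (22.2% of features) and 1 was lower (29% of features), with 51.2% of features past the threshold. Of the features called, 43.3% were higher, and 53.55% in the other table. Here 3 of the 5 genes did not overlap, against 44.4% of features, and the median was 0.32 beside -0.07. Counting only genes detected on all arrays of a compared group, SRM and SAT1 were past the threshold in both comparisons. For EGBG against undifferentiated cells, 4 genes were lower, where 26.0% of features were lower and 49.1% passed. Arrays did not overlap for 4 genes, against 46.9% of features. PAOX is again in both counts, with the same limit. The comparisons of EGBG with day 6 and of EGBG plus SDSM with EGBG share the EGBG arrays, so a high or low EGBG mean enters both with opposite signs.

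**Figure D4:**
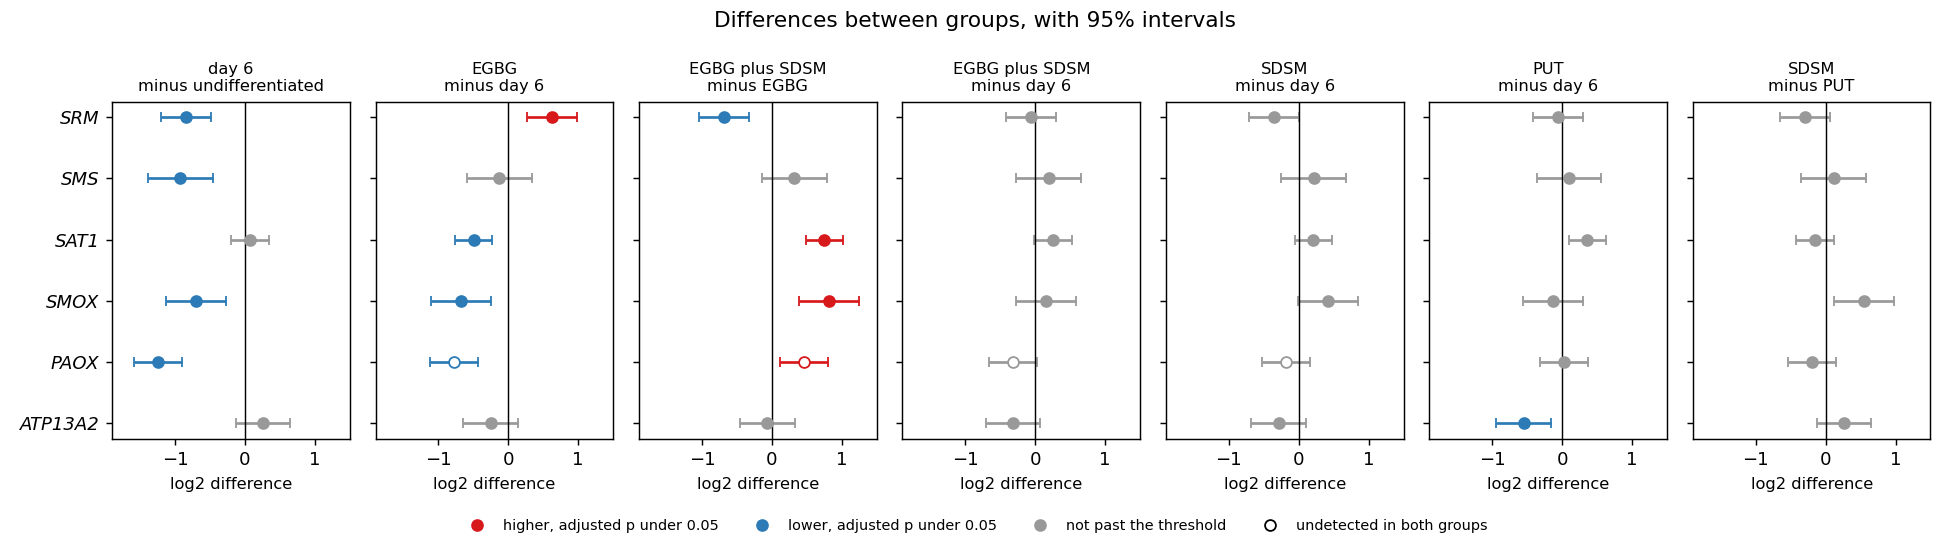
Log2 differences (horizontal axes) of the 6 tested genes in 7 comparisons, with 95% intervals, 4 arrays per group. Red and blue points passed an adjusted p of 0.05 upwards and downwards, grey points did not, and open points are differences between groups in which the probe was undetected. Calls stand mostly in the first 3 panels, and PUT against day 6 holds 1, for ATP13A2.

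The 6 tested genes were also set against day 6 in cells given spermidine/spermine or putrescine. For SDSM against day 6, 0 of the 6 tested genes passed the limma threshold, where 25.4% of features did, and for EGBG plus SDSM against day 6 also 0 passed, where 16.4% of features did. At an unadjusted p under 0.05 there was 1 gene for SDSM, SRM, and 0 for EGBG plus SDSM. For PUT against day 6, 1 passed, where 16.6% of features did. With only 6 genes tested, counts of 0 or 1 cannot be told apart from these shares over all features. The median difference was 0.21 for SDSM (-0.02 over all features) and 0.15 for EGBG plus SDSM (0.00 over all features), both without PAOX, undetected in those groups. For PUT it was -0.02 (0.03 over all features).

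Spermidine/spermine and putrescine, the end products and their precursor, were given at the same labelled dose and time and could be set against each other. Of the 6 tested genes 0 differed past the limma threshold between SDSM and PUT, where 17% of features did, and 1, SMOX, did at an unadjusted p under 0.05. Beside SMOX, given above, the difference was -0.30 for SRM (95% interval -0.65 to 0.06), 0.11 for SMS (-0.35 to 0.57), -0.15 for SAT1 (-0.42 to 0.11) and 0.26 for ATP13A2 (-0.13 to 0.65). The intervals do not show that the genes responded alike to both. EGBG plus SDSM against SDSM gave 0 genes past the limma threshold, where 0.988% of features passed, and 0 at an unadjusted p under 0.05.

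The other genes of polyamine metabolism were taken as 5 lists of 48 genes in all, of which 35 were tested. In day 6 against undifferentiated cells 4 were higher and 14 lower. In EGBG against day 6, 14 were higher and 11 lower, and in EGBG plus SDSM against EGBG, 7 were higher and 15 lower. The shares of all features in each direction are those given above for the same comparisons.

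Among 7 tested genes of ornithine and putrescine supply, 1 was higher and 2 lower in day 6 than in undifferentiated cells. ARG1, the arginase that makes ornithine, was undetected in undifferentiated cells and at least 71.1-fold higher at day 6, and ODC1, ornithine decarboxylase, differed by -1.66 ± 0.19. With EGBG 3 were higher and 3 lower than at day 6, among them ARG1 (-4.50 ± 0.26) and ARG2, its mitochondrial relative (-1.87 ± 0.23, detected on 1 of 4 EGBG arrays). With EGBG plus SDSM 3 were higher and 3 lower than with EGBG, among them ARG1 (5.24 ± 0.26) and ALDH18A1, which makes a precursor of ornithine and proline (-1.59 ± 0.18).

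The aminopropyl donor is decarboxylated S-adenosylmethionine, and the methionine in it is salvaged after use. Of 9 tested genes 0 were higher and 5 lower in day 6 than in undifferentiated cells, among them APIP of the methionine salvage pathway (-1.38 ± 0.23, detected on 1 of 4 day 6 arrays) and GOT1, a transaminase (-1.26 ± 0.22). With EGBG 7 were higher and 0 lower than at day 6, with a list median of 0.68 beside 0.07 over all features. AMD1, the target of EGBG, differed by 1.26 ± 0.32 (adjusted p = 0.0027) and ENOPH1, a salvage enzyme, by 1.00 ± 0.13. With EGBG plus SDSM 1 was higher and 7 lower than with EGBG, among them MAT2A, which makes S-adenosylmethionine (1.55 ± 0.35), and AMD1 (-1.45 ± 0.32). AMD1 did not pass the threshold in day 6 against undifferentiated cells (adjusted p = 0.134).

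Of 4 tested antizyme genes and inhibitors, 1 was higher and 1 lower in day 6 than in undifferentiated cells. OAZ3, an antizyme, had log2 signals of 10.80, 6.77, 6.60 and 6.28 at day 6 (7.61 ± 2.14, SD, n = 4), against 5.46 to 5.77 in undifferentiated cells, where it was undetected. Replicate 1 stood far above the other day 6 arrays and set the size of the difference, which was 1.94 with it (adjusted p = 0.00412, limma) and 0.88 without it. That left-out fit was chosen after the values were seen. OAZ3 was detected on 3 of 4 day 6 arrays and on 1 SDSM array, just enough for the filter on dim signals. It was thus tested mainly through the group where it was high, and without replicate 1 it would not pass the filter. Its calls here and for EGBG against day 6 are therefore no support for a difference. As OAZ3 was undetected in undifferentiated cells, its level there is known only as a bound, which put day 6, replicate 1 included, 2.21-fold higher. The other day 6 signals lay within or under the range of the lowest detected signal. AZIN1, which frees ornithine decarboxylase from antizyme, differed by -1.87 ± 0.14. With EGBG 1 was higher and 3 lower than at day 6, among them OAZ3 and OAZ2, both undetected on all EGBG arrays. OAZ3, set against the same day 6 arrays, differed by -1.78, and by -0.72 without day 6 replicate 1. Set against the detection limit, and with replicate 1 included, it was 1.99-fold lower. OAZ2, detected on 3 of 4 day 6 arrays, was 1.62-fold lower when set against the detection limit. With EGBG plus SDSM 1 was higher and 1 lower than with EGBG, namely OAZ1, the main antizyme (1.15 ± 0.13), and AZIN1 (-1.56 ± 0.14).

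Hypusine is a modified lysine of EIF5A made from spermidine. Of its 4 genes tested 0 passed the threshold in day 6 against undifferentiated cells. DHPS, which transfers part of spermidine to EIF5A, differed by 0.82 ± 0.16 in EGBG against day 6 and by -0.51 ± 0.16 in EGBG plus SDSM against EGBG, and was the only gene of the list to pass in either. Of 11 tested genes of other acetylation, oxidation and transport, 2 were higher and 6 lower in day 6 than in undifferentiated cells, among them SLC18B1, a vesicular polyamine transporter (-1.91 ± 0.20, detected on 2 of 4 day 6 arrays), and CAV1 of caveolae (-1.73 ± 0.14). With EGBG 2 were higher and 5 lower than at day 6. ATP13A4, a relative of ATP13A2, was at least 1.37-fold lower and undetected with EGBG, while SLC12A8 differed by 1.25 ± 0.22 (detected on 2 of 4 day 6 arrays). With EGBG plus SDSM 2 were higher and 3 lower than with EGBG, among them ATP13A4 (at least 1.65-fold higher) and GPC1, a heparan sulfate proteoglycan linked to polyamine uptake (at least 1.87-fold lower, undetected with both compounds).

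Against day 6, 0 of the 35 were higher and 4 lower with EGBG plus SDSM, where 8.72% of all features were higher and 7.70% lower. With SDSM 3 were higher and 9 lower (12.3% and 13% of features), and with PUT 4 were higher and 5 lower (9.58% and 7% of features). These comparisons share the day 6 arrays. AZIN1 differed by -0.85 ± 0.14 with EGBG plus SDSM, by -0.89 ± 0.14 with SDSM and by -1.93 ± 0.14 with PUT. MAT2A differed by 1.62 ± 0.35 with SDSM and by 1.63 ± 0.35 with PUT. Others also passed the threshold. With EGBG plus SDSM these included ALDH2 (-1.16 ± 0.34, day 6 SD 1.10) and ALDH9A1 (-0.94 ± 0.15). With SDSM they included ALDH18A1 (-1.19 ± 0.18), ALDH9A1 (-1.01 ± 0.15) and ARG1 (0.91 ± 0.26). With PUT they included ODC1 (-1.51 ± 0.19) and AMD1 (1.01 ± 0.32).

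The named genes whose signal ran most like that of each tested gene were found among 9028 named genes by Pearson's r over the 24 arrays, which share groups. For SRM they were HOXC6 (r = 0.93), MTFR1 (0.92) and RABL2A (0.91), and for SMS they were LIMA1 (0.86), TRIM47 (0.85) and ITPK1 (0.83). For SAT1 they were NABP1 (0.92), IER3 (0.89) and ATL1 (0.89). For SMOX they were PPP1R18 (0.84), ETS1 (0.83) and TMEM131 (0.83), for PAOX PRRT3 (0.95), MLKL (0.94) and PLSCR3 (0.94), and for ATP13A2 SYTL1 (0.78), APLP2 (0.77) and RABAC1 (0.77). Over the 20 arrays at day 6, HOXC6 again came first for SRM (0.92), before GAS6 and NBL1 (both 0.92), and RABAC1 was again among those of ATP13A2 (0.84), after LDOC1 (0.87) and before SLC35A4 (0.82). The others had none of the same genes on these arrays. They were HNRNPH2 (0.79), PGAM4 (0.73) and ITPRID2 (0.73) for SMS, and ADORA2B (0.95), ANXA3 (0.93) and LDHA (0.93) for SAT1. For SMOX they were PIM1 (0.89), MAP2K3 (0.87) and CDYL (0.87), and for PAOX SH2D4A (0.87), PKIA (0.84) and NUSAP1 (0.84).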

How the data were processed

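The 24 Illumina bead arrays of N/TERT1 total RNA carry 47304 probes, and groups were taken from the sample labels. The authors deposited, in the series matrix, an intensity per probe and array that is linear and background-subtracted as read from its values. A further table gives, per the file headers, a signal and a detection p-value per probe and array. In it 65.66% of signals stand at a floor of 40, as do signals of 8 of the 13 probes described here on at least 1 array, so the authors' intensity values of the series matrix were used with the deposited detection p-values, and the other signals served as an alternative. GenomeStudio appears in the submitters' processing notes, with a version not given in the sources used here.

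Signals were background-corrected and quantile-normalized in R 4.3.3 by the neqc function (offset 16) of limma 3.58.1 and put on a log2 scale, computed here from the deposited intensity values. Probes with a detection p-value under 0.01 on at least 4 arrays were kept (14304), and the brightest probe stood for a gene, which gave 12149 features. Probes were named from the platform annotation, with 1 symbol for 30102 probes. All 6 groups entered a single fit with lmFit and eBayes, contrasts were two-sided, and p-values were adjusted by Benjamini-Hochberg over all features of a comparison. Bounds set the brighter mean against the lowest detected signal or the dim probe's own signal, whichever was higher. The number of arrays limits the precision. Of arrays, 0 pairs were identical and none was left out. Slides and scans are not named in the files, and no slide block was run. Figures were drawn with matplotlib 3.10.9, and the fit was tested on simulated data.

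The members and lists were chosen with earlier results of these data known. Genes named are the 7 members, genes of the 5 pathway lists and, for each tested member, the 3 named genes with the highest r. Of each list the 2 genes with the largest differences among those past the threshold are named. For EGBG plus SDSM, SDSM and PUT against day 6, the genes named are examples from the lists. Whether replicate numbers pair the arrays was checked by correlating their deviations from group means. In 3 of 15 pairs of groups every same-numbered pair exceeded 0.1 (the whole range was -0.26 to 0.57), namely EGBG with day 6, SDSM with PUT, and EGBG plus SDSM with SDSM, and the labels name nothing that a number stands for. The alternatives were no background correction, a normexp offset of 50, scaling to the 75th percentile, cyclic loess, the other table of signals, no filter, detection on all 4 arrays of a group, every probe as its own feature, only the groups compared, a trended and robust variance, the replicate block, and leaving out each array. Leaving out all arrays numbered 3, leaving day 6 replicate 1 out for OAZ3, and counting only genes detected on all arrays of a compared group were added after seeing the data.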

Additional observations from a re-analysis of the deposited data

Results flagged for a closer look

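Among 36 combinations of a gene and a group, 2 held an array whose distance to the nearest other array took up nearly the whole range of the group. By chance about 1 in 20 such groups would. EGBG replicate 3 had an SMS signal of 10.15, and its gap was 0.835 of the EGBG range. Undifferentiated replicate 1 had a SAT1 signal of 14.95, with a gap of 0.868 of the range. The effect of EGBG on SAT1 differed between cells given spermidine/spermine and cells without it by a log2 of 0.54, as tested by the interaction term. That call was lost under 13 of 28 alternatives (limma, adjusted p up to 0.175).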

How the results depend on the processing

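Each difference was recomputed under 20 alternatives, or 28 for the interaction. The calls between groups of which at least 1 detected the gene that were kept under all of them were those of SAT1 for EGBG against day 6, SAT1 and SMOX for EGBG plus SDSM against EGBG, SRM for day 6 against undifferentiated, SMS and SMOX for EGBG against undifferentiated, and PAOX for day 6 against undifferentiated and EGBG against undifferentiated. PAOX passed the filter on dim signals only through the undifferentiated arrays, where it was high. That its calls against undifferentiated cells were kept is therefore no separate support for them. Scaling to the 75th percentile moved the median of all features by -0.10 for EGBG against day 6, and the SAT1 call there was kept. The share of called features that were higher was 41.7% for SDSM against PUT and 52.35% with cyclic loess. For the interaction it was 52.6%, and 66.5% with 75th percentile scaling and 70.4% with the other table. For EGBG plus SDSM against SDSM it was 56.7%, and 67.4% with no background correction and 36.4% without arrays numbered 3. The cause of the changes below was not tested.

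The number of the 7 genes past the threshold changed as follows. With the other table of signals it was 2 for day 6 against undifferentiated (4 as reported), 2 for EGBG plus SDSM against EGBG (4 as tested), 1, SRM, for SDSM against day 6 (0 as reported) and 0 for PUT against day 6 (1 as reported). Over all features that table also called fewer. It called 5743 for day 6 against undifferentiated (7001 as reported), 4917 for EGBG plus SDSM against EGBG (6218 as reported) and 2380 for SDSM against day 6 (3083 as reported). Counting only genes detected on all arrays of a compared group, it was 2 for EGBG against day 6 and 2 for EGBG plus SDSM against EGBG (4 as tested in both): SRM and SAT1 stayed, while SMOX and PAOX dropped out. With 75th percentile scaling it was 1 for EGBG plus SDSM against day 6, SAT1, where 1894 features passed (1994 as reported). PUT against day 6 also gave 0 with no background correction, 75th percentile scaling, cyclic loess, no filter, only the groups compared, or arrays numbered 3 left out, and kept 1 with a normexp offset of 50 and with a trended variance, where SAT1 stood in the place of ATP13A2. Over all features, these settings called from 1426 (only the groups compared) to 2121 (75th percentile scaling), with 2015 as reported. SDSM against PUT gave 1, SMOX, with only these groups. The interaction gave 2, with PAOX added, under no background correction, a normexp offset of 50 and cyclic loess, and 0 with only the groups compared or arrays numbered 3 left out. Leaving out single arrays gave 3 to 4 genes for EGBG against day 6, EGBG plus SDSM against EGBG and EGBG against undifferentiated, 0 to 1 for PUT against day 6 and 0 to 2 for the interaction.

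With the replicate number as a block, 1 gene passed for SDSM against day 6 (SRM), 1 for SDSM against PUT (SMOX) and 2 for the interaction (SAT1 and PAOX), and no other call of the 7 genes changed. The block also called more of all features, namely 3696, 2518 and 2641 for these comparisons in that order (3083, 2069 and 2245 without it). Of the 24 arrays 18 correlated best with their own number, a hint from the data and not from the design. The block gave 306 features for EGBG plus SDSM against SDSM, where 120 passed without it. That count was 78 with cyclic loess, 61 with the other table, 3 with only these groups and 11 without arrays numbered 3. With the other table EGBG plus SDSM against day 6 gave 1298 features (851 with only these groups, 1994 as reported), PUT against day 6 gave 1213 (2015 as reported) and SDSM against PUT gave 1347 (1094 without arrays numbered 3, 2069 as reported). SDSM against day 6 gave 1944 with only these groups (3083 as reported).

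Signs turned only among differences that had not passed the threshold. For ATP13A2, EGBG plus SDSM against EGBG was 0.0049 with 75th percentile scaling, 0.0212 with cyclic loess and 0.10 without arrays numbered 3 (single arrays left out: -0.22 to 0.0974). EGBG plus SDSM against SDSM was 0.12 without arrays numbered 3 (-0.10 to 0.0964), and EGBG against undifferentiated was -0.0114 with no background correction, -0.0555 with 75th percentile scaling, -0.0566 with cyclic loess, -0.0603 with the other table, and -0.0383 without arrays numbered 3 (-0.16 to 0.16). For SMOX, EGBG plus SDSM against day 6 was -0.045 without arrays numbered 3 (-0.0043 to 0.30), and PUT against day 6 ran from -0.29 to 0.0179. For SRM, EGBG plus SDSM and PUT against day 6 each ran from -0.15 to 0.0415, and the interaction was 0.13 with the other table. For PAOX, SDSM against day 6 was 0.0239 with 75th percentile scaling, and PUT against day 6 was -0.0077 with the other table and -0.0374 without arrays numbered 3 (-0.0885 to 0.13). For SMS, PUT against day 6 was -0.0658 with the other table, SDSM against PUT ran from -0.0183 to 0.27, EGBG plus SDSM against SDSM was 0.0301 with the other table and 0.0088 with every probe as a feature (-0.19 to 0.11), and the interaction ran from -0.0642 to 0.33. For SAT1, EGBG plus SDSM against SDSM ran from -0.0048 to 0.0964. For dim genes, signal over background is the limit: SMOX, PAOX and ATP13A2 lay near the detection limit.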
